A study of Mus musculus with 8 samples.

Results

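The Hedgehog genes described here are 10 named genes of the receptor complex and its transducers: Ptch1, Smo, Boc, Cdon, Gas1, Hhip, Sufu, Gli1, Gli2 and Gli3. They were taken by name from tables of mouse retinal organoid mRNA with 35494 loci (1 h table) and 35541 loci (8 h and 24 h tables), and each name occurred at exactly 1 locus in every table. All 10 were listed with a valid estimate, and 8 of the 10 reached 1 FPKM (fragment counts scaled to transcript length and library size) in at least 1 condition of each table. Gli1 and Hhip stayed under that level at every time and are described without a call.

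The organoids were differentiated from a mouse line with the Rx:GFP reporter, in which both endogenous Mettl3 alleles carry a C-terminal FKBP12F36V-HA tag. METTL3 writes N6-methyladenosine (m6A) on RNA, and the tag lets the small molecule dTAG-13 send the protein to degradation. Day 6 organoids were untreated (0 h) or had received 125 nM dTAG-13 for 1, 8 or 24 h, with 2 replicates in each of the 4 groups, and were grown in GMEM with 5% KSR and 0.1 µM AGN (as the labels name it). Every group carries the tag, so the effect of the compound on untagged cells was not analysed here, and the labels do not say whether the 0 h organoids received solvent. The only untreated group is 0 h, and whether treated organoids were collected later than it is not given here. If they were, hours of treatment and hours of culture cannot be told apart.

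Hedgehog ligands bind PTCH1, which otherwise holds the membrane protein SMO inactive. BOC, CDON and GAS1 are co-receptors that bind ligand together with PTCH1, and HHIP is a membrane-anchored decoy that takes ligand away. Active SMO signals at the primary cilium to release the GLI transcription factors from SUFU: GLI2 acts mainly as an activator, GLI3 mainly as a processed repressor, and GLI1 is an activator whose gene is itself a target, as are Ptch1 and Hhip. In the eye primordium, ligand from the ventral midline separates the eye fields and sets optic stalk fate against retinal fate. On mRNA, METTL3 acts most often at the RNA sequence GGACU, mainly in long exons and around stop codons and less near exon junctions, and the mark often shortens the life of the transcript.

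Each table pairs 0 h with 1 treated time and gives a single FPKM per condition, combined over both replicates, with an interval deposited by the authors. Replicate spread cannot be read from such a column and no test over replicates was possible. The interval printed after each FPKM is the deposited one. Every condition summed to between 31361500 and 32562100 estimated counts, and the estimated counts of the 8 members that reached 1 FPKM had coefficients of variation between 9.38% and 12.4%. A gene was called changed when FPKM, with 0.1 added to both values, differed at least 1.5-fold and the 2 intervals did not overlap. In bulk RNA, fewer cells of a type and less RNA per cell cannot be told apart.

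Only 3 members were called at any time. Gli2 rose at 8 and 24 h, Gli3 rose at 8 h, and Boc was lower at 1 h. The transcript sequences of these 3 genes, of Ptch1 and of Smo are shown at their GGACT matches (GGACU in RNA), because this is the sequence that METTL3 most often methylates. The windows come from the representative transcripts of GENCODE M21 (GRCm38) and are written 5′ to 3′ on the transcript strand, with the match in capitals. Matches whose window crosses an exon junction were left out. Of the rest, the 3 nearest the end of the coding sequence are given for Gli2 and Gli3, 2 for Boc and Ptch1, and 1 for Smo.
Gli2, coding, exon 14 of 14, chr1:118836034-118836054, minus strand: agcaccgtGGACTcccagctc
Gli2, 3′ UTR, exon 14 of 14, chr1:118835001-118835021, minus strand: gttgctgtGGACTaggaatag
Gli2, coding, exon 14 of 14, chr1:118836618-118836638, minus strand: gccacctgGGACTccctcagc
Gli3, 3′ UTR, exon 15 of 15, chr13:15726913-15726933, plus strand: atggaaaaGGACTctgaaaaa
Gli3, coding, exon 15 of 15, chr13:15726127-15726147, plus strand: cctaccagGGACTcaggacaa
Gli3, 3′ UTR, exon 15 of 15, chr13:15727667-15727687, plus strand: tacttggaGGACTgttttttg
Boc, coding, exon 18 of 19, chr16:44486736-44486756, minus strand: aaagtcctGGACTagaatctt
Boc, coding, exon 16 of 19, chr16:44487763-44487783, minus strand: cattggagGGACTtccaggtc
Ptch1, coding, exon 23 of 23, chr13:63511596-63511616, minus strand: gagaggagGGACTcaaaggtg
Ptch1, coding, exon 23 of 23, chr13:63512004-63512024, minus strand: ccccacctGGACTctggctcc
Smo, coding, exon 12 of 12, chr6:29760268-29760288, plus strand: gcagactcGGACTtctgagcc

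Among windows that no exon junction crosses, the nearest match starts 258 bases before the last coding base in Gli2 and 143 after it in Gli3. The distances before it are 221 in Boc, 72 in Ptch1 and 6 in Smo. The last exon holds 7 matches in Gli2, 10 in Gli3, 7 in Ptch1, 4 in Smo and 0 in Boc. Only the transcript strand was searched, and no other motif was compared. Of 10944 tested protein-coding genes with a gene model, 92.3% hold GGACT somewhere in the transcript and 70.2% in the last exon, so a match is common. Methylation was not measured, and a match is not a methylated site.

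At 0 h the members covered a wide range of levels, which FPKM allows to be compared between genes because it is scaled to transcript length. In the 24 h table Smo had 61.0 FPKM (49.2 to 72.8), Gas1 57.0 (46.0 to 68.0), Cdon 36.4 (27.4 to 45.5) and Gli3 30.2 (24.2 to 36.3). Sufu followed with 17.3 (12.7 to 21.9), Ptch1 with 8.57 (5.90 to 11.2), Gli2 with 7.13 (5.53 to 8.73) and Boc with 5.16 (4.04 to 6.28). Gli1, at 0.637 (0.292 to 0.981), and Hhip, at 0.240 (0.0843 to 0.395), closed the order.

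The intervals of Smo and Gas1, of Cdon and Gli3, of Ptch1 and Gli2, of Gli2 and Boc, and of Gli1 and Hhip overlapped, so these neighbours were not separated. Sufu stood apart from both its neighbours, and Boc was 8.10 times the level of Gli1. Gas1 and Cdon did not overlap in the 8 and 24 h tables but did in the 1 h table. The 0 h FPKM of a member differed between tables by at most a factor of 1.05 (Smo). Among the transcription factors, Gli3 had 4.24 times the FPKM of Gli2 and 47.5 times that of Gli1. The GLI factor known mainly as a repressor was thus the most abundant GLI transcript in untreated organoids. The target-encoded activator Gli1 was under the 1 FPKM level for a call, with 80.1 estimated counts.

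**Figure D1:**
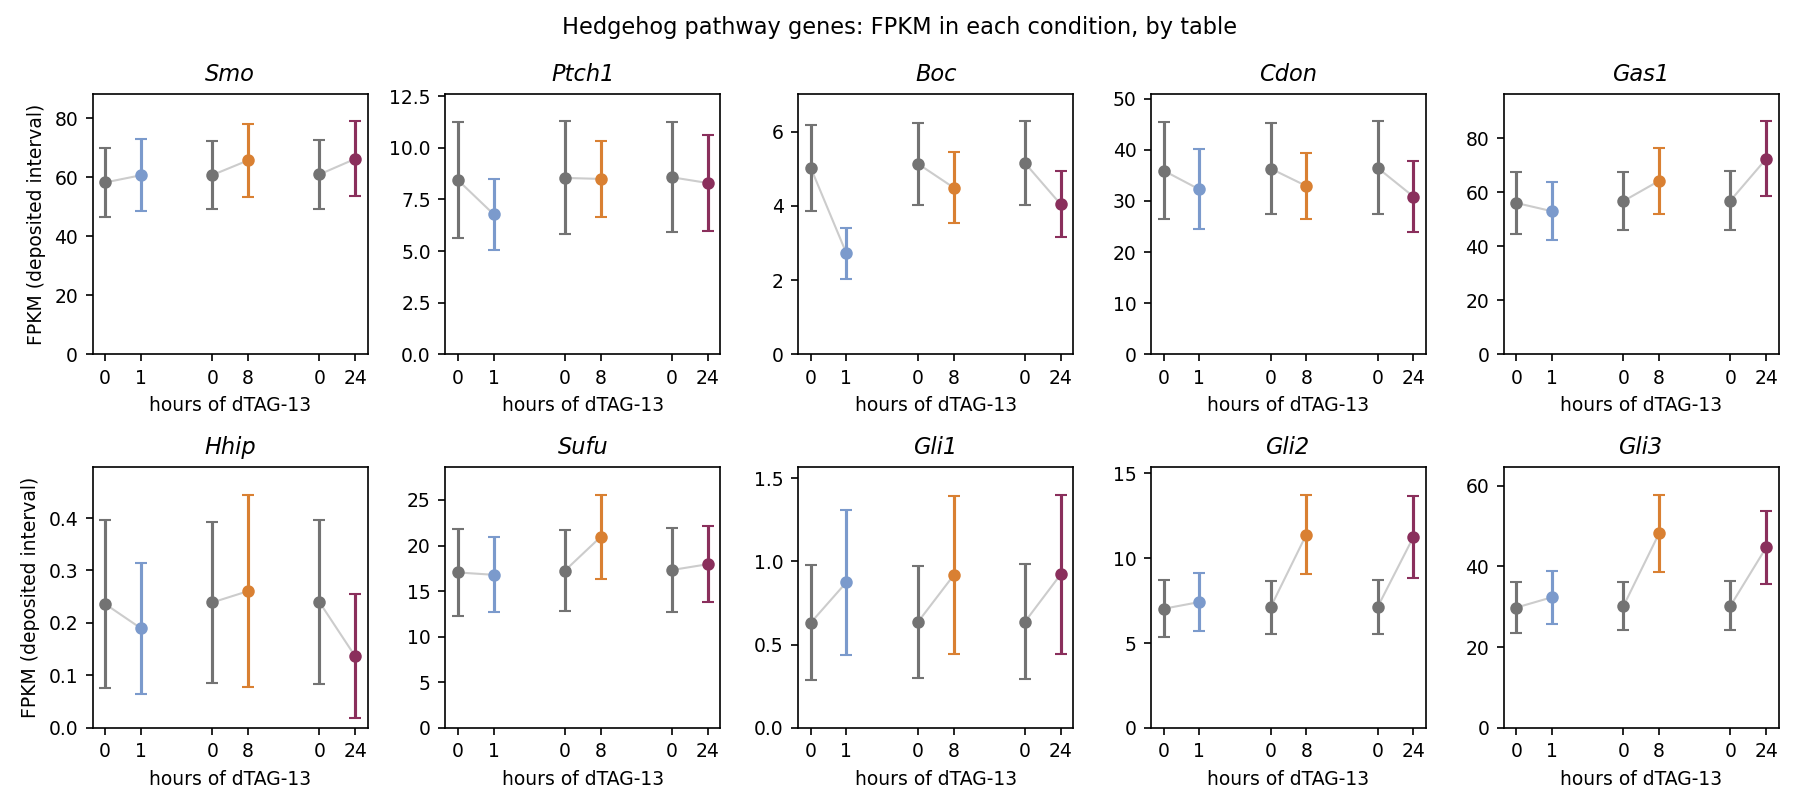
FPKM of each Hedgehog gene (linear axes from 0) at 0 h and at the treated time of the same table, with the deposited interval as the bar. Boc separates from 0 h at 1 h, Gli2 at 8 and 24 h and Gli3 at 8 h, and every other pair of intervals overlaps.

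Gli2 encodes the main GLI activator and lies on chromosome 1 at 118834132 to 119053619 (minus strand, 14 exons). Its FPKM was 7.02 (5.35 to 8.69) at 0 h and 7.41 (5.70 to 9.13) at 1 h. Against 7.11 (5.54 to 8.67) in untreated organoids it reached 11.4 (9.06 to 13.7) after 8 h, and against 7.13 (5.53 to 8.73) it reached 11.3 (8.85 to 13.7) after 24 h. The intervals overlapped at 1 h and were separate at 8 and 24 h. On the log2 scale the changes at 1, 8 and 24 h were 0.08 ± 0.22, 0.67 ± 0.20 and 0.65 ± 0.20, where the error is a standard error computed from the deposited count variances. Estimated counts rose with FPKM, from 1540 to 2451 at 8 h and from 1525 to 2376 at 24 h.

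Gli3 encodes the main GLI repressor and lies on chromosome 13 at 15463235 to 15730026 (plus strand, 15 exons). It had 29.8 FPKM (23.6 to 36.04) at 0 h and 32.4 (25.8 to 39.0) at 1 h. At 8 h it rose from 30.1 (24.2 to 36.1) to 48.2 (38.7 to 57.7). At 24 h it had 30.2 (24.2 to 36.3) before and 44.7 (35.6 to 53.9) after treatment. The 8 h intervals were separate, while at 24 h the lower bound after treatment fell just under the upper bound at 0 h.

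The Gli3 changes were 0.12 ± 0.21, 0.68 ± 0.19 and 0.56 ± 0.20 (log2, SE) at 1, 8 and 24 h. The 24 h value is 1.48-fold and missed both the fold and the interval criterion narrowly, against 1.57-fold for Gli2 at that time. The ratio of Gli3 to Gli2 FPKM was 4.23 at 8 h and 3.97 at 24 h, close to the 4.24 of untreated organoids. All 3 comparisons use the same 0 h libraries, so the 8 and 24 h values of a gene are not independent, and the difference between times was not tested.

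These calls stand against a background of 612 of 13825 loci called at 8 h (4.43%, with 3.49% higher and 0.94% lower) and 762 of 13910 at 24 h (5.48%, with 3.83% higher and 1.65% lower). The members were 2 of 8 tested at 8 h, both higher, and 1 of 8 at 24 h, also higher. Separate intervals alone, at any fold, were found at 4.56% of tested loci at 8 h and 5.51% at 24 h, and the same members met that rule. The median log2 changes of the 8 tested members at 1, 8 and 24 h were -0.05, 0.15 and 0.09, beside 0.01, 0.01 and 0.02 over all tested loci. The Gli3 and Gli2 changes ranked at the 93.7th and 93.6th percentile of all tested loci at 8 h.

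Gli1 encodes the activator that is itself a Hedgehog target, on chromosome 10 at 127329882 to 127341974 (minus strand). Its FPKM was 0.631 (0.286 to 0.976) at 0 h and 0.874 (0.440 to 1.31) at 1 h, 0.634 (0.297 to 0.972) and 0.915 (0.441 to 1.39) in the 8 h table, and 0.637 (0.292 to 0.981) and 0.921 (0.444 to 1.40) in the 24 h table. The treated value was above the 0 h value in each table, inside overlapping intervals. With estimated counts between 80.1 and 117, the intervals extended to each side by 52.2% to 53.0% of the value, averaged over the 2 conditions of a table, and separate intervals would have needed a change of 3.18-fold to 3.25-fold. A change of the size seen for Gli2 was not detectable at this depth. The Gli1 locus of the tables overlaps Arhgap9, Inhbe, Inhbc and Gm47200, of which the highest had 0.280 FPKM at 0 h in the 24 h table.

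**Figure D2:**
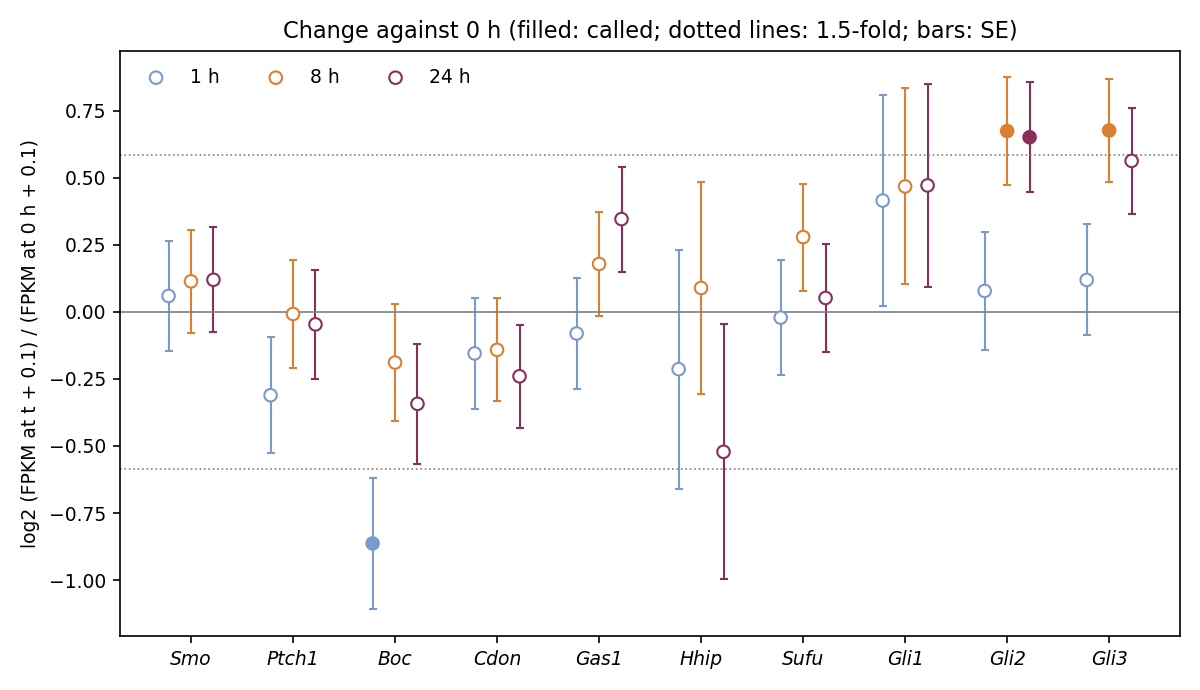
Log2 change of each Hedgehog gene at 1, 8 and 24 h against 0 h of the same table (bars are standard errors from the deposited count variances, filled points are called, dotted lines mark 1.5-fold). Gli2 and Gli3 lie between 0.56 and 0.68 at 8 and 24 h, Boc is at -0.86 at 1 h, and the widest bars are those of Hhip and Gli1.

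Boc encodes an immunoglobulin and fibronectin domain co-receptor that binds Hedgehog ligand, and lies on chromosome 16 at 44485049 to 44558897 (minus strand, 19 exons). It had 5.03 FPKM (3.87 to 6.19) at 0 h and 2.72 (2.04 to 3.40) at 1 h. Organoids treated for 8 h had 4.50 (3.53 to 5.46) against 5.14 (4.04 to 6.24), and those treated for 24 h had 4.05 (3.16 to 4.93) against 5.16 (4.04 to 6.28). The 1 h interval lay wholly below that of 0 h, whereas the 8 and 24 h intervals overlapped it. The log2 changes at 1, 8 and 24 h were -0.86 ± 0.24, -0.19 ± 0.22 and -0.34 ± 0.22, so only the 1 h value was called.

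Boc was the only member among the 55 of 13690 loci called at 1 h (0.402%, with 0.117% higher and 0.285% lower). That split depends on the processing: 16 of the 55 were higher, against 4 of 38 on estimated counts and 43 of 95 with no filter on low values, and Boc was called lower under both. Estimated counts gave the same picture, 734 at 0 h and 398 at 1 h, a log2 change of -0.88. Across 10 equal groups of tested genes by transcript length, the median log2 change at 1 h went from 0.09 in the shortest to -0.07 in the longest. Among tested genes in the same length group as Boc (4211 to 5010 bases), the median was -0.03 and 0.278% were called lower. The part of transcript length in the Boc value was not tested.

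Cdon encodes the closest relative of BOC and lies on chromosome 9 at 35421128 to 35507652 (plus strand). It had 35.9 FPKM (26.4 to 45.5) at 0 h and 32.2 (24.4 to 40.1) at 1 h, 36.3 (27.4 to 45.2) and 32.9 (26.5 to 39.3) in the 8 h table, and 36.4 (27.4 to 45.5) and 30.8 (23.9 to 37.7) in the 24 h table. All treated values were below 0 h with overlapping intervals, and the log2 changes were -0.16, -0.14 and -0.24. The ratio of Cdon to Boc FPKM was 7.14 at 0 h and 11.9 at 1 h in the same table.

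Gas1 encodes a membrane-anchored co-receptor from a gene with a single exon, on chromosome 13 at 60174405 to 60177365 (minus strand). It had 56.1 FPKM (44.7 to 67.5) at 0 h and 53.0 (42.2 to 63.8) at 1 h, 56.8 (46.0 to 67.6) and 64.3 (52.1 to 76.4) in the 8 h table, and 57.0 (46.0 to 68.0) and 72.4 (58.6 to 86.3) in the 24 h table. The intervals overlapped at each time, and the log2 changes were -0.08 ± 0.21, 0.18 ± 0.19 and 0.35 ± 0.20. At 24 h Gas1 had the highest FPKM of the 10 genes, above Smo, although the intervals of these 2 overlapped. The 3 co-receptors thus had 24 h values on different sides of 0, none of them called.

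Ptch1 encodes the ligand receptor and is the classical readout of pathway activity, on chromosome 13 at 63508328 to 63573598 (minus strand, 23 exons in the representative transcript). It had 8.44 FPKM (5.64 to 11.2) at 0 h and 6.78 (5.05 to 8.51) at 1 h, 8.54 (5.81 to 11.3) and 8.49 (6.67 to 10.3) in the 8 h table, and 8.57 (5.90 to 11.2) and 8.30 (5.98 to 10.6) in the 24 h table. Every treated interval overlapped its 0 h interval. The log2 change of FPKM was -0.31, -0.01 and -0.05, and that of estimated counts was -0.18, 0.15 and 0.03, so its sign at 8 and 24 h depends on the scale. Separate intervals would have needed a change of 1.73-fold to 1.84-fold for Ptch1. Gli2 had 0.832 times the FPKM of Ptch1 at 0 h, and 1.34 and 1.36 times after 8 and 24 h, with overlapping intervals of the 2 genes in each condition.

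Hhip encodes the ligand decoy and is a second feedback target, on chromosome 8 at 79965851 to 80058006 (minus strand). It had 0.236 FPKM (0.0751 to 0.397) at 0 h and 0.190 (0.0649 to 0.315) at 1 h, 0.239 (0.0862 to 0.392) and 0.261 (0.0772 to 0.444) in the 8 h table, and 0.240 (0.0843 to 0.395) and 0.137 (0.0183 to 0.255) in the 24 h table. All intervals overlapped, on 33.4 to 60.8 estimated counts, and separate intervals would have needed a change of 5.06-fold to 7.25-fold.

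Smo, which encodes the signal-transducing membrane protein on chromosome 6 at 29735503 to 29761365 (plus strand), was the most abundant member at 0 h. It had 58.3 FPKM (46.5 to 70.05) at 0 h and 60.7 (48.5 to 72.9) at 1 h, 60.8 (49.2 to 72.3) and 65.8 (53.3 to 78.2) in the 8 h table, and 61.0 (49.2 to 72.8) and 66.3 (53.5 to 79.0) in the 24 h table. The log2 changes were 0.06, 0.11 and 0.12, each below its standard error of 0.19 to 0.21.

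Sufu encodes the cytoplasmic inhibitor of the GLI proteins, on chromosome 19 at 46396896 to 46488804 (plus strand). It had 17.0 FPKM (12.3 to 21.8) at 0 h and 16.8 (12.7 to 20.9) at 1 h, 17.3 (12.8 to 21.7) and 20.95 (16.4 to 25.5) in the 8 h table, and 17.3 (12.7 to 21.9) and 17.95 (13.8 to 22.1) in the 24 h table. The 8 h log2 change was 0.28 ± 0.20 and those at 1 and 24 h were -0.02 and 0.05, all with overlapping intervals.

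The members were then compared by exon architecture, although they were chosen with earlier results of these data known. Exon junctions per kb of coding sequence were 2.59 in Gli2, 2.74 in Gli3 and 3.0 in Gli1, against a median of 6.17 over tested genes. Smo had 4.62, Cdon 4.80, Boc 5.11, Ptch1 5.11, Hhip 5.71 and Sufu 7.58, and Gas1 had 0. The last exon holds 51.6% of the coding sequence in Gli2, 48.8% in Gli3 and 52.5% in Gli1, all of it in Gas1, between 4.29% (Cdon) and 18.1% (Smo) in the other members, and a median of 11.0% over tested genes. Its whole length is 4046 bases in Gli2, 5566 in Gli3 and 751 in Boc, beside a median of 1363 over tested genes. It is 6674 in Hhip, 3748 in Ptch1, 3596 in Cdon, 2950 in Sufu, 1919 in Gli1 and 1514 in Smo. The Gas1 model has 1155 bases but holds coding sequence only, so the whole length of its exon is not given by that value. At 8 h, Gli2 and Gli3 were in the top of 10 equal groups by this length. That group had a median log2 change of 0.14, with 5.58% called higher, against -0.16 and 0.365% in the bottom group.

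When the tested genes were divided into 10 equal groups by junction density, Gli2 and Gli3 fell into the same group, with 1.41 to 3.10 junctions per kb. In that group the median log2 change at 8 h was 0.34, and 11.4% of genes were called higher. At 24 h the median of this group was 0.31, with 12.5% called higher. The 8 h values of Gli2 and Gli3 lay above the group median and in its direction.

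Gas1 belonged to the group of lowest density, where the median at 8 h was 0.41 and 17.6% were called higher, and its own 0.18 lay below that median. Smo, Ptch1, Boc and Cdon shared a group with a median of 0.08 at 8 h and 3.11% called higher. Sufu came from a group with a median of -0.11 and 0.0914% called higher, and its value of 0.28 lay above it. Gene architecture was not varied in this study, so its part in these values was not tested.

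**Figure D3:**
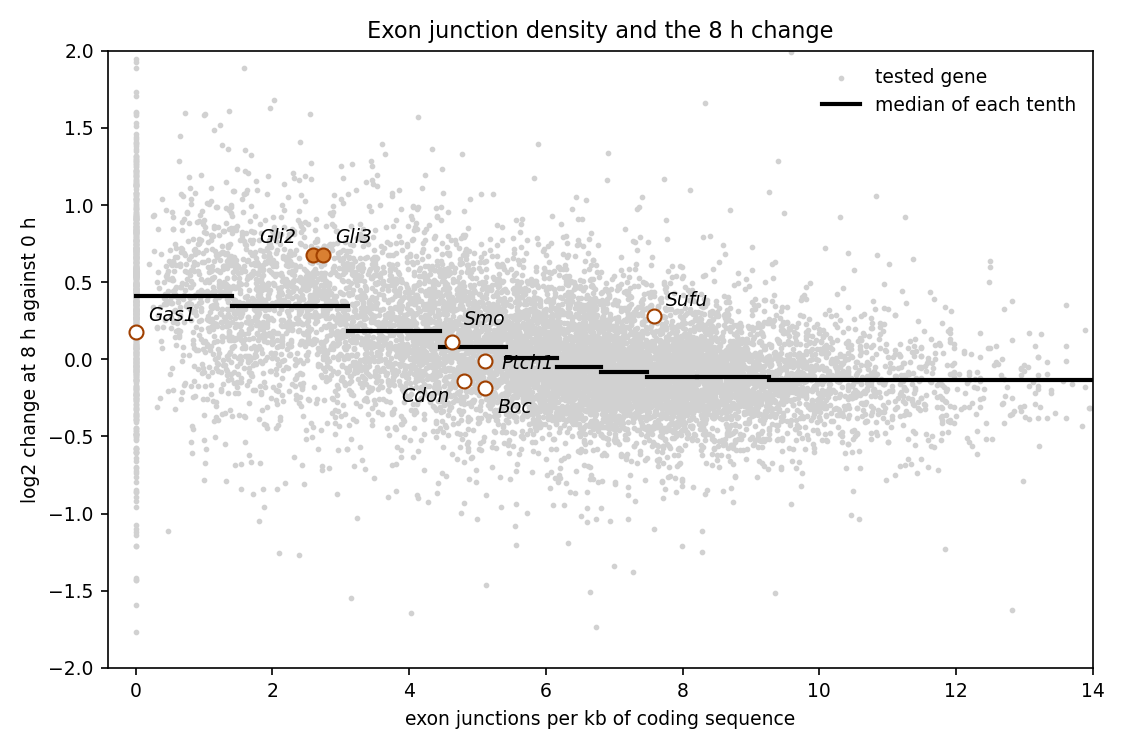
Exon junctions per kb of coding sequence (x) against the log2 change at 8 h (y) for tested genes (grey, drawn within -2 to 2 and up to 14 junctions per kb) and the 8 tested Hedgehog genes (filled where called), with the median of each of 10 equal groups as a black line. Gli2 and Gli3 lie at 2.59 and 2.74 junctions per kb, above their group's median of 0.34, and Gas1 lies below that of its own group.

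The rest of the pathway was read from 4 lists with 63 distinct names, of which 60 matched a locus with a single name. None of 48 tested genes was called at 1 h or of 49 at 24 h, and 1 of 49 was called at 8 h, beside the backgrounds of 0.402%, 5.48% and 4.43%. The median log2 change of the tested genes was -0.02, 0.02 and 0.00 at 1, 8 and 24 h. The lists were chosen with earlier results known, and the counts describe them only.

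Of the genes for ligands and their release, 5 of 7 matched genes were tested. Shh, the ligand of the ventral midline, had 0.0286 FPKM at 0 h from 2.47 estimated counts, at the limit of detection, and Ihh had 0.469 FPKM. Dhh shared its locus with Rhebl1 and was left out. Disp1, which encodes the transporter that releases lipid-bearing ligand, was called at 8 h: it rose from 4.18 FPKM (3.07 to 5.29) to 7.80 (5.49 to 10.1), a log2 change of 0.89 ± 0.21. At 24 h Disp1 had 5.62 FPKM (4.30 to 6.93) against 4.19 (3.05 to 5.33), a log2 change of 0.41 with overlapping intervals.

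Disp1 has 1.31 junctions per kb, and its last exon holds 78.4% of the coding sequence. All 5 tested genes of this list were above 0 at 8 h, with a median of 0.30, and 3 of 5 at 24 h, with a median of 0.34. On estimated counts these medians were 0.11 and 0.16, with 5 and 4 of the 5 above 0. Scube1 and Scube3, secreted proteins that take up released ligand, had log2 changes of 0.30 and 0.26 at 8 h and of 0.35 and 0.34 at 24 h, with overlapping intervals. On estimated counts Scube1 had 0.03 and Scube3 0.11 at 8 h, and 0.16 and 0.22 at 24 h.

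None of 20 tested receptor and cilium genes was called, with medians of -0.07, 0.03 and 0.03 at 1, 8 and 24 h (-0.07, 0.11 and 0.04 on estimated counts). Lrp2, an endocytic receptor that binds ligand, had 31.0 FPKM at 0 h and a 24 h change of 0.15. Mgrn1, a ubiquitin ligase acting on SMO, had a 24 h change of -0.10. Kif3a, a motor subunit needed to build cilia, had a 24 h change of 0.03. Ift172, a carrier subunit in cilia, had the lowest 24 h value of this list, -0.74 ± 0.20, from 17.6 FPKM (10.4 to 24.8) to 10.5 (5.66 to 15.3). It was not called because the intervals overlapped. On estimated counts, whose variances give that error, the change was -0.56. Ift172 is named after its values were seen.

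None of the 15 genes for GLI phosphorylation and turnover was called, with medians of 0.01, -0.08 and -0.07. Csnk1a1, a kinase that marks GLI proteins for processing, had log2 changes of -0.28 at 8 h and -0.30 at 24 h. Prkar1a, the regulatory subunit of protein kinase A, had -0.23 and -0.21, and Cul1, the scaffold of the ligase that starts GLI3 processing, had 0.12 and 0.08. All of these intervals overlapped.

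Of 18 matched target genes, 8 were tested at 1 h and 9 at 8 and 24 h, and none was called. The medians were 0.03, 0.12 and -0.12. Ccnd2, a cell cycle gene, had changes of -0.01 at 8 h and -0.12 at 24 h, Sfrp1, a secreted Wnt inhibitor, 0.12 and 0.11, and Rab34, a cilium GTPase, -0.01 and 0.05. Vax2, a ventral retina gene named after its values were seen, had 43.5 FPKM (30.9 to 56.2) at 0 h and 64.7 (48.2 to 81.1) at 8 h, a log2 change of 0.57 with overlapping intervals. At 24 h the log2 change of Vax2 was 0.08. The ventral neural tube targets were at or near background: Nkx2-2 was listed at 0 at 0 h, and Foxa2 had 0.264 FPKM at 0 h and 0.630 at 8 h, both under the level for a test.

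**Figure D4:**
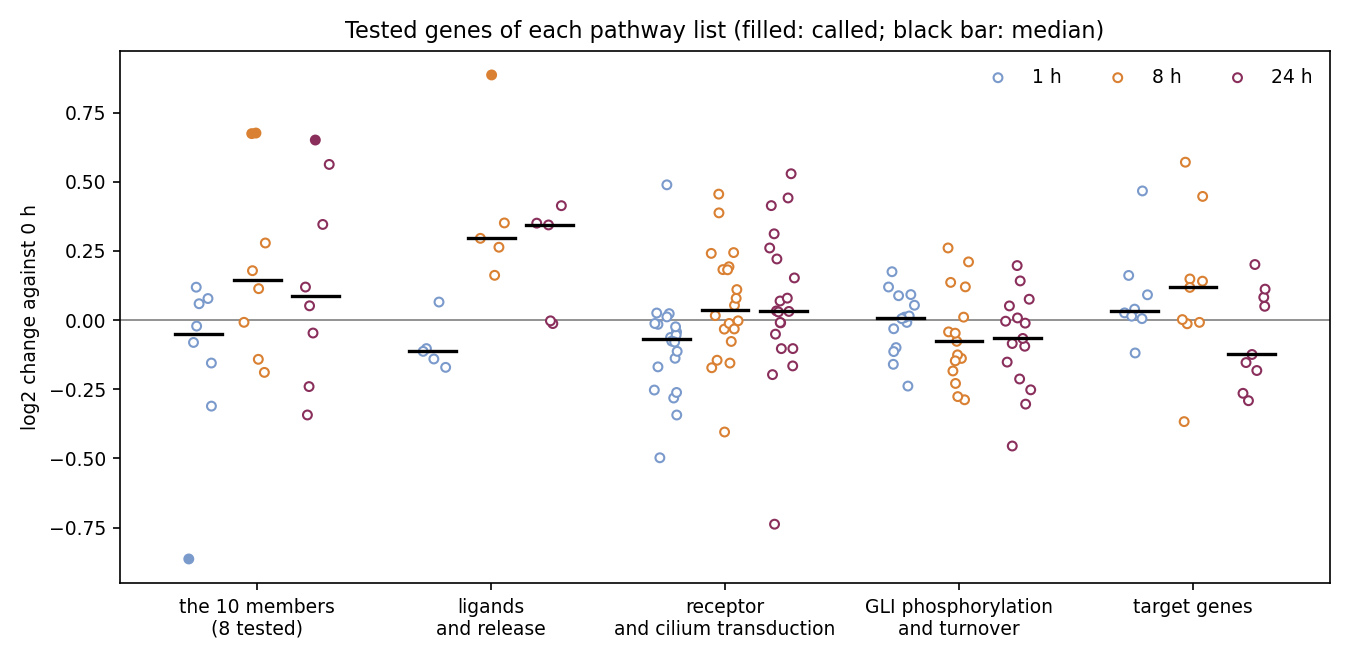
Log2 change against 0 h of every tested gene of the 10 members and of the 4 other pathway lists at 1, 8 and 24 h (filled points are called, black bars are medians). The called points are Boc at 1 h, Gli2, Gli3 and Disp1 at 8 h and Gli2 at 24 h, and the medians of the lists lie between -0.12 and 0.34.

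Across these genes and the members, 55 tested genes had a gene model and a name at 1 locus only. At 8 h, 10 of the 11 in the lower 2 of the 10 density groups were above 0 and 3 were called higher, with a median of 0.45. Over all tested genes of those groups 81.6% were above 0 and 14.5% were called higher, with a median of 0.36. Of the other 44 pathway genes, 22 were above 0 and none was called, with a median of 0.00, beside 44.1% above 0, 1.3% called higher and a median of -0.04 over all other tested genes. At 24 h, 9 of the 11 were above 0 and 1 was called, with a median of 0.20, below the 0.34 over all tested genes of those groups, of which 78.5% were above 0 and 15.2% called higher. At 1 h, 8 of the 11 were above 0 and none was called, with a median of 0.07, beside 46.4% above 0 and a median of -0.02. The grouping was chosen after the values were seen.

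For each called member, the 2 genes with the most similar set of 3 log2 changes were taken from 10174 candidates with at least 100 estimated counts everywhere. They were Panx1 (distance 0.0264) and Cep19 (0.0377) for Gli2, and included Zfp574 (0.0458) for Gli3. For Boc they were Xkr8 (0.114) and Gm16008 (0.176). Within a distance of 0.2 there were 277 genes around Gli2 and 244 around Gli3 but 4 around Boc. The likeness rests on 3 values that share the 0 h libraries.

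The markers of the labelled tissue were present. All 9 eye field and retinal progenitor markers were tested at each time, and their summed FPKM was 696 at 0 h and 934 at 24 h. At 24 h 2 of the 9, Rax and Lhx2, were called higher, 8 were above 0 and 1 was below, at -0.30. Over all tested loci 3.83% were called higher and 1.65% lower at 24 h. Pluripotency markers were also present, with a sum of 310 FPKM at 0 h and 202 at 24 h. Most of that difference is Dppa5a, with 200.4 FPKM at 0 h and 109 at 24 h. The genes called lower were Tdgf1 and Dppa5a, while the median log2 change of the 7 was -0.18 and 2 of the 7 were above 0. The sum over 4 pigment epithelium markers was 48.6 FPKM at 0 h and 82.7 at 24 h, with Tyr listed at 0 at 0 h. At 24 h 2 of these 4 were tested, with log2 changes of 0.15 and 1.06, and none was called. Ventral neural tube markers summed to 0.570 FPKM and neural crest markers to 0.972 at 0 h. Lists for neuron, mesoderm and endoderm markers had sums of 10.4, 3.28 and 3.81 FPKM at 0 h and of 8.82, 4.23 and 5.58 at 24 h, with Tubb3 and Elavl3 not matched to a locus of their own. In the 8 h table, where both Gli2 and Gli3 were called, the eye field sum was 694 at 0 h and 873 at 8 h, the pluripotency sum 309 and 274, and the pigment epithelium sum 48.4 and 59.8. The neuron sum was 10.3 and 10.1 there, the mesoderm sum 3.27 and 3.40, the endoderm sum 3.79 and 5.62, and the telencephalon sum 21.8 and 23.3. The part of these sums in the Gli2 and Gli3 values was not tested.

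In the promoters of 8 members with an entry in RefSeq's table (GRCm38.p6, from 250 bases before to 50 after the start), the GLI site GACCACCCA and its core CCACCCA were searched on both strands, the longer motif containing the shorter. Neither occurred in any of the 8, and 0.253% and 9.30% of 32851 promoters of the same length hold them. This says only that these letters are not in these windows.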

How the data were processed

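Polyadenylated RNA of 8 samples was sequenced as paired 150-base reads, per the labels. The submitters' processing notes name Cufflinks 2.2.1, Cuffdiff and the build mm10, without their roles, and the strand used in counting and the annotation are not given in the sources used here. The authors deposited 3 pairs of tables: FPKM, the bounds of an interval around it whose level is not stated, and estimated counts with their variance, which need not be whole. Each quantity has 1 column per condition, so replicates could not be separated, and nothing says they came from separate cultures.

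Log2 changes were formed within each table, because the tables were normalized separately. The call needs FPKM of at least 1 in 1 condition, a valid status, a 1.5-fold change and intervals that do not overlap. It is applied to whole tables and gives no p-value. It was tested on simulated data whose planted changes were larger than those of the called members. Changes of the size called here were therefore not covered by that simulation. The columns are pooled, so edgeR and DESeq2 were not used. Standard errors combine the deposited count variances, which are relatively narrower than the FPKM intervals for some genes such as Ptch1. Unnamed loci (4822 to 4904 per table, 1.03% to 1.11% of estimated counts) were kept in the tables. Loci with several names were not matched to lists, and of several loci with 1 name the one highest at 0 h was used. The degradation acts on the METTL3 protein, so its mRNA does not check the labels and is not reported.

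Gene models are from GENCODE M21 (GRCm38), 1 transcript per gene by APPRIS rank and then coding length. All 10 members matched a gene that their locus covered. The Gas1 model holds coding sequence only. The text names all members, every called list gene and the 3 list genes highest at 0 h. A few genes that this rule or the lists name are not reported here. The members and lists were chosen with earlier results of these data known. Python 3.11.15, pandas 2.3.3 and numpy 2.4.6 were used.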

Additional observations from a re-analysis of the deposited data

How the results depend on the processing

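Of 9 alternatives run for each time, the number of called Hedgehog genes changed under 1. With a 2-fold threshold the count at 1, 8 and 24 h became 0, 0 and 0 in place of 1, 2 and 1, because the changes of Boc, Gli2 and Gli3 are under 2-fold. Pseudocounts of 1 and 0.01 FPKM, no filter on low values, a filter at 5 FPKM, the 1.5-fold threshold without intervals, a lower fold threshold with intervals, estimated counts, and centring on the median of all tested loci left the same genes called. Of 270 single values for the members under the 9 alternatives, 4 lost their call, all under the 2-fold threshold, and none reversed a call. Dropping the filter, dropping the intervals or lowering the fold only loosens the rule, so these settings could add a call but not remove one. Over whole tables, 707, 1896 and 2371 loci passed at 1, 8 and 24 h without the interval criterion (5.16%, 13.7% and 17%), in place of 55, 612 and 762. The 2-fold threshold left 39, 217 and 297. At 1 h, 95 passed with no filter and 30 with the 5 FPKM filter.

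No paired analysis was possible because the columns combine both replicates of a condition, and for the same reason leaving out a replicate could not be run. Depth limits Gli1 and Hhip, for which only changes above 3.18-fold and 5.06-fold would have separated the intervals.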
